A study of Mus musculus with 23 samples.

Results

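The zinc-finger genes Zeb1, Zeb2, Snai1 and Snai2, the basic helix-loop-helix gene Twist1, and the effector genes Vim and Cdh2 were followed through 4 stages of blood formation from mouse embryonic stem (ES) cells, with and without the leukaemic fusion protein RUNX1-ETO. The members were taken by gene symbol: every probe whose RefSeq identifier maps to one of the 7 symbols was collected, and the probe with the highest mean signal stood for its gene. This gave 7 genes of the 20145 that could be named on the array, and all 7 were among the 15202 genes tested. Each member had 1 probe, except Cdh2 and Zeb2 with 2 each. Signals are log2 intensities after background correction and quantile normalisation, so a difference of 1 is a 2-fold difference, and a level can be compared between samples for 1 probe but not between genes.

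All cells came from an ES line, labelled C57BL/6, that carries an HA-tagged human RUNX1-ETO gene behind a doxycycline (Dox)-responsive promoter and keeps its own Runx1 genes intact, so the uninduced cells carry the transgene too. Haemogenic endothelium (HE) was sorted as KIT+Tie2+CD41- cells, HE2 as KIT+Tie2+CD41+ cells and early progenitors (Prog) as KIT+Tie2-CD41+ cells from blast cultures, at day 2, with Dox at 0.1 μg per ml from day 1 or without it. For the fourth stage, myeloid progenitors, KIT+CD41+ cells were purified from the blast culture and then grown in a medium with stem cell factor, Flt3 ligand and thrombopoietin, with Dox at the same dose for 12 h before harvest at day 3 or without it. There were 3 arrays in each of the 8 groups of stage and Dox, except uninduced and induced Prog with 2 each. A further uninduced Prog array is called a technical replicate in the labels, and it was normalised with the others but left out of the 22 arrays compared. The third induced myeloid array is a biological replicate in its title but a technical one in its source name, so that group may hold 2 distinct samples and not 3. Replicate numbers of the induced HE, HE2 and myeloid arrays are uncertain, since the scanner data and the submitted expression table exchange arrays 2 and 3 within each of these groups, which does not touch the group means. The titles call all arrays compared biological replicates. The labels do not say that replicates of a group came from separate cultures, so P values measure the spread between these arrays. Sorted populations were measured in bulk, so fewer cells of a type and less RNA per cell cannot be told apart.

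These genes are the classical regulators and readouts of epithelial-mesenchymal transition (EMT), in which cells lose junctions, gain motility and leave a sheet. ZEB and SNAIL proteins are zinc-finger repressors that bind E-box sequences and silence junction genes such as E-cadherin, TWIST1 is a bHLH factor that binds E-boxes with E-proteins, vimentin is the intermediate filament of mesenchymal, endothelial and many blood cells, and N-cadherin, encoded by Cdh2, is an adhesion receptor of mesenchymal and endothelial cells. The endothelial-haematopoietic transition, in which flat adherent HE cells round up and detach as blood progenitors, also involves the loss of cell junctions, and ZEB2 is known for a role in embryonic haematopoiesis.

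Upstream sequence was used for 4 of the 7 genes. The 3 shown here belong to Vim, whose signal rose with Dox in myeloid progenitors, to Zeb2, whose signal was higher on every induced array compared at all 4 stages, and to Snai1, whose signal fell from HE2 to Prog. Each is the 250 bases before a transcription start in the RefSeq annotation of GRCm38.p6, read 5′ to 3′ on the gene's strand, with matches in capitals. The Vim window is chr2:13574061-13574310 on the plus strand, the Zeb2 window chr2:45117443-45117692 on the minus strand before the first of 4 annotated starts, and the Snai1 window chr2:167537945-167538194 on the plus strand.
Vim: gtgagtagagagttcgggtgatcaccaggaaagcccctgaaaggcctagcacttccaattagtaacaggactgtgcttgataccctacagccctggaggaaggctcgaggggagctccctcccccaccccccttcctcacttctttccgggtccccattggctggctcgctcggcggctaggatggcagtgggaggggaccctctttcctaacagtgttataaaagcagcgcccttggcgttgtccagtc
Zeb2: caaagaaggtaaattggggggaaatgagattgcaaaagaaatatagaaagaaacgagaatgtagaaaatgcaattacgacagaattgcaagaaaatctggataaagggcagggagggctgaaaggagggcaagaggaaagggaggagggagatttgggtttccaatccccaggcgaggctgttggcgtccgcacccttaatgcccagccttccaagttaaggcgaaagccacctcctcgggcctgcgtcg
Snai1: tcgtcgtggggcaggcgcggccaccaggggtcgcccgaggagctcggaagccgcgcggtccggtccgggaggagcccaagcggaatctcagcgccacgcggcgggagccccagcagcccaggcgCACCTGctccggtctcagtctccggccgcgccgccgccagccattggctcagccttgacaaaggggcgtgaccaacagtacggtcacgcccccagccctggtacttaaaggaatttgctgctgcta
Letters searched on both strands were the RUNX core TGTGGT, the E-box CANNTG and CAGGTG, an E-box known to be favoured by ZEB and SNAIL proteins, which is itself one of the CANNTG words. The only match in the 3 windows was 1 E-box of the CAGGTG kind in the Snai1 window, from base -126 to base -121 before the start, read there as its reverse complement. No RUNX word and no E-box was in the windows of the other 3 Zeb2 starts or of Twist1. Among 32807 upstream windows of the same length in the annotation, 14% held TGTGGT, 66.2% a CANNTG word and 17.2% CAGGTG. A match describes letters and not a bound site, and these arrays measured no binding.

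The labels were checked on Runx1t1 first, the mouse gene whose human counterpart supplies the ETO part of the fusion. Its probe was higher on every induced array at each stage, by 1.24 in HE, 2.08 in HE2, 3.96 in Prog and 2.06 in myeloid progenitors on the log2 scale, and passed the threshold used throughout, at least 2-fold with an unadjusted limma P no higher than 0.001, at every stage except HE. The sort was checked on Tek (Tie2), Kit and Itga2b (CD41). Uninduced Kit averaged 12.70 in HE, 13.00 in HE2 and 13.71 in Prog, all sorted as KIT+. Uninduced Tek averaged 11.95 in HE, 10.67 in HE2 and 8.67 in Prog, but its 3 HE arrays spread from 10.77 to 13.81. Itga2b RNA did not separate the groups gated on surface CD41. In uninduced cells it read 9.49 to 11.46 in CD41- HE and 11.19 to 12.51 in CD41+ HE2, which overlap. In induced cells it read 6.92 to 8.02 in HE and 7.73 to 10.75 in HE2, which also overlap. In HE it fell by 3.21 with Dox (SE 0.65, adjusted P = 0.00205, limma). In Prog, sorted as Tie2-, Tek was 11.10 with Dox against 8.67 without it. Between 48.8% and 78.4% of the spots of an array were well above background and 0 were saturated, and precision is set by the small number of arrays. All member probes were well above background on all 22 arrays compared, except Snai1 and Snai2 on 1 uninduced myeloid and 1 induced Prog array.

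**Figure D1:**
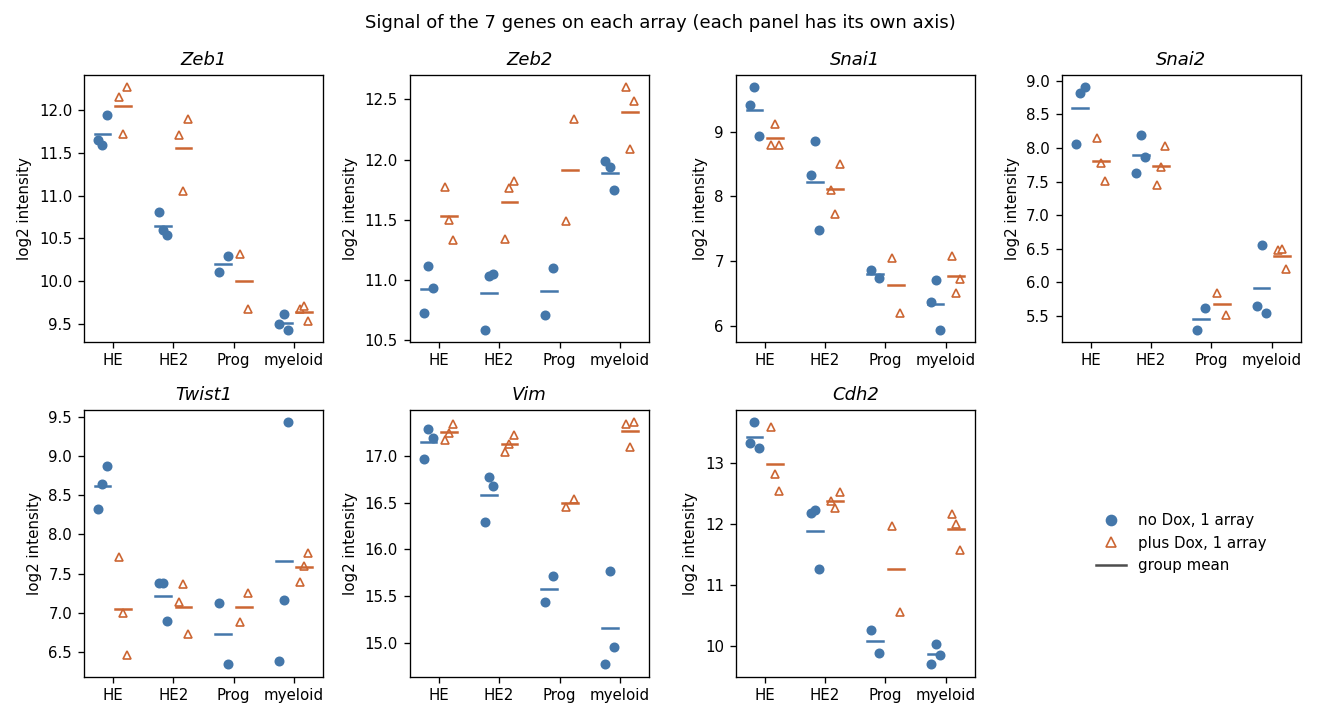
Log2 intensity of the 7 genes on each of the 22 arrays (vertical axes, one scale per gene) at the 4 stages (horizontal axis), without Dox (filled circles) and with Dox (open triangles), with lines at the group means. Zeb1, Snai1, Snai2, Twist1, Vim and Cdh2 have their highest uninduced mean in HE, whereas induced Vim in myeloid progenitors lies between 17.10 and 17.37, as high as in HE.

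The first question was how the members change along the normal course, from HE through HE2 to Prog, without Dox. All 7 had a lower mean in HE2 than in HE, and 2, Zeb1 and Cdh2, passed the threshold. For Zeb2 the difference was only -0.035, it lay between -0.14 and 0.12 with 1 array left out, and its second probe gave 0.11. From HE2 to Prog 4 members fell, Snai1, Snai2, Vim and Cdh2, while the Zeb2 means lay close together at all 3 stages. Over all genes tested, 5.07% passed the threshold from HE to HE2, 2.67% downwards, and 5.39% from HE2 to Prog, 3.62% downwards. The arrays of the later stage were all lower for 5 of the 7 members at each step, which 13.3% and 20.3% of all genes showed. The median change of the members was -1.08 for the first step and -1.01 for the second, beside 0.028 and -0.018 over all 15202 genes.

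Among the ZEB genes, Zeb1 read 11.65, 11.59 and 11.94 in HE and 10.81, 10.60 and 10.54 in HE2. The 2 sets of arrays do not overlap, and Zeb1 fell by 1.08 (SE 0.22, adjusted P = 0.00306, limma), a call lost without the third HE array (-0.97). In Prog it read 10.10 and 10.29, below each HE2 array, with a difference of -0.45 (SE 0.24) that did not pass (adjusted P = 0.361, limma). Within slides the HE to HE2 difference was -0.92 on slide 1 and -1.40 on slide 2. Zeb2 averaged 10.93 ± 0.19 (SD, n = 3) in HE, 10.89 ± 0.26 (n = 3) in HE2 and 10.91 ± 0.27 (n = 2) in Prog, and its arrays overlap between all 3 stages. The 95% interval of its change was -0.51 to 0.44 for the first step and -0.51 to 0.55 for the second.

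Both SNAIL genes passed the threshold at the second step and not at the first. Snai1 read 9.40, 9.69 and 8.93 in HE, 8.33, 8.86 and 7.48 in HE2, and 6.85 and 6.74 in Prog. No stage overlaps with the next, although the 8.86 in HE2 lies just below the 8.93 in HE. Its HE to HE2 difference of -1.11 (SE 0.32) missed the threshold with an adjusted P of 0.0329 (limma), and it passed when only these 2 groups were fitted with the replicate number as a block (adjusted P = 0.0167, limma), the pairing that the arrays of this step bore out. In the fit of these 2 groups without the block the adjusted P was 0.158 (limma), and without the second HE2 array the difference was -1.43 and passed. From HE2 to Prog it fell by 1.43 (SE 0.36, adjusted P = 0.016, limma), a call lost under 5 alternatives of processing or fit and when any of 4 of the 5 arrays was left out, with values from -1.80 to -1.11. Snai2 read 8.05, 8.82 and 8.91 in HE and 7.63, 8.19 and 7.87 in HE2, which overlap, and 5.30 and 5.61 in Prog. Its first step, at -0.70 (SE 0.28, adjusted P = 0.133, limma), did not pass. Its fall from HE2 to Prog was 2.44 (SE 0.31, adjusted P = 3.86e-05, limma), 5.43-fold on the linear scale. In the main fit this was the largest fall of any member at any stage step. The alternatives gave -2.46 to -1.81, and the Prog signals of Snai2 lay close to background. The Snai2 difference was -2.61 on slide 1 and -2.25 on slide 2.

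Twist1 read 8.33, 8.65 and 8.87 in HE, 7.38, 7.38 and 6.90 in HE2, and 7.13 and 6.34 in Prog. HE stood above HE2 on every array, yet the difference of -1.40 (SE 0.52) did not pass (adjusted P = 0.1, limma), and it passed in 1 alternative with a P limit, the fit of these 2 groups alone (adjusted P = 0.0216, limma), but not when that fit had the replicate number as a block. Its arrays in HE2 and Prog overlap.

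The effector genes Vim and Cdh2 followed. Vim read 16.97, 17.29 and 17.20 in HE, 16.30, 16.77 and 16.68 in HE2, and 15.44 and 15.72 in Prog. The stages do not overlap. The first step, at -0.57 (SE 0.21, adjusted P = 0.0983, limma), did not pass, and the second passed the threshold narrowly, with a fall of 1.01 (SE 0.23, adjusted P = 0.00917, limma) that lost its call under 4 alternatives of processing or fit and when any of 4 of the 5 arrays was left out (-1.15 to -0.87). Cdh2 read 13.33, 13.67 and 13.25 in HE, 12.18, 12.23 and 11.25 in HE2, and 10.26 and 9.89 in Prog. It fell by 1.53 (SE 0.33, adjusted P = 0.00544, limma) and then by 1.82 (SE 0.37, adjusted P = 0.00342, limma). The first step was -1.30 on slide 1 and -1.99 on slide 2, and the second -1.95 and -1.37. Leaving out the third HE2 array or the second HE array took the first call away (-1.21 and -1.40), and leaving out the second Prog array took the second (-1.63). Both calls were also lost when only the groups compared were fitted (adjusted P = 0.036 and 0.0342, limma), and both passed once that fit took replicate numbers as a block.

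Markers of other cell types moved over the same steps. The summed linear intensity of 9 mesenchymal or fibroblast markers was 10179 to 38647 in uninduced HE, 4098 to 8480 in HE2 and 1839 to 2395 in Prog, with 7 to 9 of the 9 well above background on each array. That of 4 smooth muscle markers was 100191 to 232777, 29179 to 102852 and 18489 to 25326, and that of 8 endothelial markers 78437 to 155103, 46286 to 64285 and 23112 to 24100. Cardiac sums fell too, at 4932 to 7862, 1769 to 4466 and 491 to 876. Haematopoietic sums rose, at 6935 to 9637, 34550 to 44913 and 83756 to 88154, as did erythroid ones, at 30903 to 41806, 75695 to 101411 and 170889 to 205454. Epithelial and macrophage or mast sums overlapped between HE and HE2. The part of these cells in the members' declines was not tested.

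Uninduced myeloid progenitors were set against uninduced Prog, a comparison in which stage, culture medium, slide and scan day go together. No member passed the threshold in either direction, in the same limma fit, where 13.9% of all genes did. At an unadjusted P under 0.05, which 43.3% of all genes had, Zeb1 (-0.68, SE 0.24) and Zeb2 (0.99, SE 0.25) differed. Zeb1 read 9.50, 9.61 and 9.43 in myeloid progenitors against 10.10 and 10.29 in Prog. Zeb2 read 11.99, 11.94 and 11.75 in myeloid progenitors against 10.71 and 11.10 in Prog, and its P of 0.00105 lay just outside the threshold. The extra uninduced Prog array, which shares the myeloid slide, read 11.54 for Zeb2 and 9.79 for Zeb1, between those groups for both. With the slide as a block the difference was 0.21 for Zeb2 and -0.048 for Zeb1 (adjusted P = 0.982, limma), and the second Zeb2 probe gave 0.22 without that block. In the blocked fit only the second induced Prog array ties the myeloid slide to the others, so these blocked values rest on it. Twist1 was uneven among the uninduced myeloid arrays, at 6.38, 7.16 and 9.44.

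**Figure D2:**
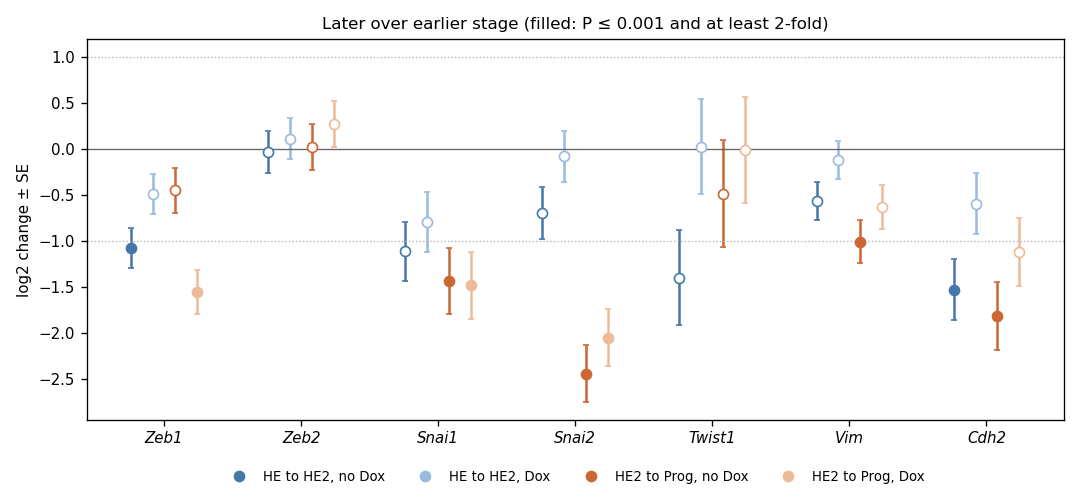
Log2 change ± SE of the 7 genes (horizontal axis) from HE to HE2 and from HE2 to Prog, without and with Dox, from the limma fit (vertical axis), with filled points past the threshold and dotted lines at 2-fold. The filled points are 6 without Dox and 3 with Dox, all below 0.

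The second question was how the members differ between induced and uninduced cells of each stage. For HE, HE2 and Prog, Dox was added at day 1, before the sort at day 2. The paper reports that few Tie2- progenitors arose after early induction. Which cells reach a sort gate may thus differ with Dox, which was not tested. In HE, HE2 and Prog no member passed the threshold, and in myeloid progenitors Vim and Cdh2 rose about 4-fold. The share of all genes past the threshold was 7.09% in HE, 7.22% in HE2, 3.73% in Prog and 6.31% in myeloid progenitors. By direction, 4.7% were higher and 2.39% lower in HE, 5.17% and 2.05% in HE2, 3.03% and 0.704% in Prog, and 5.13% and 1.18% in myeloid progenitors. At an unadjusted P under 0.05, 3 of the 7 members differed at each of the 4 stages, beside 26.9%, 29.5%, 20.2% and 25.4% of all genes from HE to myeloid progenitors. The members' median change was -0.44 in HE, 0.49 in HE2, 0.33 in Prog and 0.48 in myeloid progenitors, beside -0.0077, -0.027, -0.044 and -0.018 over all genes.

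Vim, the intermediate filament gene, read 14.77, 15.77 and 14.95 in uninduced and 17.34, 17.10 and 17.37 in induced myeloid progenitors. The lowest induced array lies above the highest uninduced one by more than 1 log2 unit, and Vim rose by 2.11 (SE 0.21, 95% interval 1.67 to 2.55, adjusted P = 1.77e-06, limma), 4.31-fold. The brightest normalised value of any gene was 18.79, so these levels lie near but below the top of the scale. In Prog, Vim read 15.44 and 15.72 without and 16.46 and 16.54 with Dox, a difference of 0.92 (SE 0.26) without overlap that did not pass (adjusted P = 0.0412, limma). In HE2 the difference was 0.55 (SE 0.21) and in HE 0.10 (SE 0.21), the latter with overlapping arrays. Scaling to the 75th percentile lowered the difference to 0.57 in Prog and 0.32 in HE2. The induced means were 17.26, 17.13, 16.50 and 17.27 from HE to myeloid progenitors, whereas the uninduced means were 17.15, 16.58, 15.58 and 15.16.

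Cdh2, which encodes N-cadherin, read 9.69, 10.04 and 9.85 in uninduced and 12.17, 11.99 and 11.57 in induced myeloid progenitors. Again the arrays do not overlap, and Cdh2 rose by 2.05 (SE 0.33, 95% interval 1.35 to 2.75, adjusted P = 0.00029, limma), 4.14-fold. Its second probe gave 2.00 (SE 0.33). In Prog it read 10.26 and 9.89 without and 11.96 and 10.55 with Dox. Both induced arrays were higher but far apart, and the difference of 1.19 (SE 0.41, adjusted P = 0.104, limma) did not pass. With the slide as a block it was 1.64 (adjusted P = 0.0133, limma), and without the second induced array, on another slide and scan day, it was 1.89, both past the threshold. Without the first induced array it was 0.48 (adjusted P = 0.5, limma). In HE2 the difference was 0.49 (SE 0.33) and in HE -0.44 (SE 0.33), and leaving out 1 array gave 0.18 to 0.67 and -0.74 to -0.22.

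Both calls in myeloid progenitors rest on arrays of 1 slide, and both passed under every processing alternative that gave a value and with any of the 6 arrays left out. Without the third induced array, whose labels disagree on the kind of replicate, the differences were 2.06 for Vim (adjusted P = 2.58e-05, limma) and 2.22 for Cdh2 (adjusted P = 0.000675, limma). Endothelial markers moved with them: the summed intensity of 8 such genes was 11081 to 15154 without and 47722 to 57495 with Dox, and 6 of the 8 rose past the threshold, Tek among them (3.07, SE 0.72, adjusted P = 0.00679, limma). The 9 mesenchymal or fibroblast markers summed to 660 to 1024 without and 1444 to 2280 with Dox, with 3 to 6 and 6 to 8 of them well above background, and none rose past the threshold while 1, Pdgfrb, fell. The 5 cardiac markers summed to 1170 to 1579 and 4765 to 6375, and the 4 smooth muscle markers to 1132 to 2424 and 1788 to 2829. Of 5 macrophage or mast markers tested, 2 mast cell genes rose, Hdc (5.43, SE 0.43) and Cpa3 (3.27, SE 0.33), and all 6 listed summed to 14564 to 24226 without and 23028 to 47889 with Dox, which overlap. Of the cardiac markers Tnnt2 rose (2.19, SE 0.36), and none of the haematopoietic, erythroid, epithelial or smooth muscle markers passed. Summed haematopoietic markers were lower with Dox without overlap, at 79761 to 89915 without and 61412 to 71185 with it. So were erythroid ones, at 1121940 to 1226594 without and 968992 to 1106375 with it. The part of these cells in the Vim and Cdh2 differences was not tested.

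Zeb2 was higher on every induced array at all 4 stages, among the 22 arrays compared, without passing at any. It read 10.73, 11.11 and 10.94 without and 11.78, 11.50 and 11.34 with Dox in HE, and 10.59, 11.03 and 11.05 against 11.34, 11.77 and 11.83 in HE2. In Prog it read 10.71 and 11.10 without and 11.49 and 12.34 with Dox, and in myeloid progenitors 11.99, 11.94 and 11.75 against 12.60, 12.09 and 12.49. The extra uninduced Prog array, left out of the comparison, read 11.54, above the first induced one. The arrays compared do not overlap at any of the stages, a pattern that 14.2%, 17%, 22.6% and 23.9% of all genes showed in the same direction at the single stages from HE to myeloid progenitors. The differences were 0.61 (SE 0.23, adjusted P = 0.0792), 0.76 (SE 0.23, adjusted P = 0.0266), 1.01 (SE 0.28, adjusted P = 0.0389) and 0.50 (SE 0.23, adjusted P = 0.17, limma). The value in Prog moves with 1 array: it was 1.43 and passed without the first induced array, and 0.58 without the second. With the slide as a block it was 0.65 (adjusted P = 0.412, limma). The 4 contrasts share no arrays, but arrays of several stages share slides.

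Zeb1, the other ZEB gene, was higher on all induced HE2 arrays, at 11.71, 11.05 and 11.90 against 10.81, 10.60 and 10.54. The difference of 0.91 (SE 0.22, adjusted P = 0.0065, limma) was short of 2-fold, and it was 1.01 on slide 1 and 0.94 on slide 2. Without the second induced array it was 1.16 and passed. In HE it was 0.32 (SE 0.22), in Prog -0.20 (SE 0.26) and in myeloid progenitors 0.12 (SE 0.22), with overlapping arrays at all 3, and the value in Prog took either sign when 1 array was left out (-0.52 to 0.13).

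The SNAIL genes showed no Dox difference past the threshold, and 1 induced Prog and 1 uninduced myeloid array were not well above background for either. Snai1 differed by between -0.44 in HE and 0.42 in myeloid progenitors, and its arrays overlap at every stage, with either sign in HE2 (-0.49 to 0.20) and Prog (-0.60 to 0.26) when 1 array was left out. Snai2 differed by -0.78 (SE 0.28, adjusted P = 0.0671, limma) in HE, where it read 8.05, 8.82 and 8.91 without and 8.15, 7.78 and 7.50 with Dox, and by -0.17, 0.22 and 0.48 at the later stages. Leaving out 1 array moved these later values to between -0.32 and -0.02 in HE2, 0.06 and 0.39 in Prog, and 0.29 and 0.80 in myeloid progenitors. Smaller differences could not be told at these numbers of arrays: the 95% interval for Snai1 in HE2 was -0.80 to 0.56.

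Twist1 was lower on every induced HE array, at 6.46 to 7.71 against 8.33, 8.65 and 8.87 without Dox. The difference of -1.56 (SE 0.52, adjusted P = 0.0478, limma) missed the threshold, and it was -0.78 on slide 1 and -2.15 on slide 2. Of all genes tested, 11% lay lower on every induced HE array. At the other stages its arrays overlap, with differences from -0.14 to 0.33 whose sign turned when 1 array was left out. The value in myeloid progenitors went from -0.08 to 0.81 without the uninduced array at 9.44, and to -0.72 without the first uninduced array. The value in Prog lay between -0.06 and 0.73, and that in HE2 between -0.30 and 0.04.

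Summed marker intensities differed with Dox in the same arrays. In HE, smooth muscle markers summed to 100191 to 232777 without and 34486 to 47788 with Dox, epithelial ones to 24728 to 60772 and 6440 to 10425, erythroid ones to 30903 to 41806 and 169842 to 340685, and macrophage or mast ones to 1542 to 3312 and 20937 to 28147. The endothelial, mesenchymal or fibroblast, cardiac and haematopoietic sums overlap there. A sum follows the brightest genes of its list. In HE only Hbb-y (3.23, SE 0.31) and Hbb-bh1 (2.69, SE 0.21) of the erythroid list passed the threshold. Of the macrophage or mast list only Hdc (5.31, SE 0.43) and Cpa3 (1.32, SE 0.33) did. In HE2, where Zeb1, Zeb2, Vim and Cdh2 were higher on every induced array, as 17% of all genes were, endothelial markers summed to 46286 to 64285 without and 101941 to 118088 with Dox, erythroid ones to 75695 to 101411 and 358008 to 432334, and macrophage or mast ones to 2342 to 3496 and 10840 to 15362. The macrophage or mast list was mixed there: Hdc rose (5.47, SE 0.43), while the macrophage gene Csf1r fell (-1.77, SE 0.33), both past the threshold. Of the erythroid list Hbb-y (4.34, SE 0.31) and Hbb-bh1 (1.90, SE 0.21) rose past it. Lower sums with Dox were those of smooth muscle markers, at 29179 to 102852 and 10345 to 10976, epithelial ones, at 12762 to 30038 and 2927 to 3677, mesenchymal or fibroblast ones, at 4098 to 8480 and 1910 to 3556, and haematopoietic ones, at 34550 to 44913 and 26475 to 30861. In Prog, endothelial markers summed to 23112 to 24100 without and 40609 to 50083 with Dox, erythroid ones to 170889 to 205454 and 488368 to 685941, macrophage or mast ones to 5103 to 5616 and 13217 to 15881, and cardiac ones to 491 to 876 and 1281 to 1541, while smooth muscle ones were lower, at 18489 to 25326 and 5407 to 15777, as were haematopoietic ones, at 83756 to 88154 and 72550 to 79217. Of the macrophage or mast list only Hdc (4.25, SE 0.53) and Cpa3 (2.28, SE 0.40) passed in Prog. The part of any of these cells in the members' Dox differences was not tested.

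**Figure D3:**
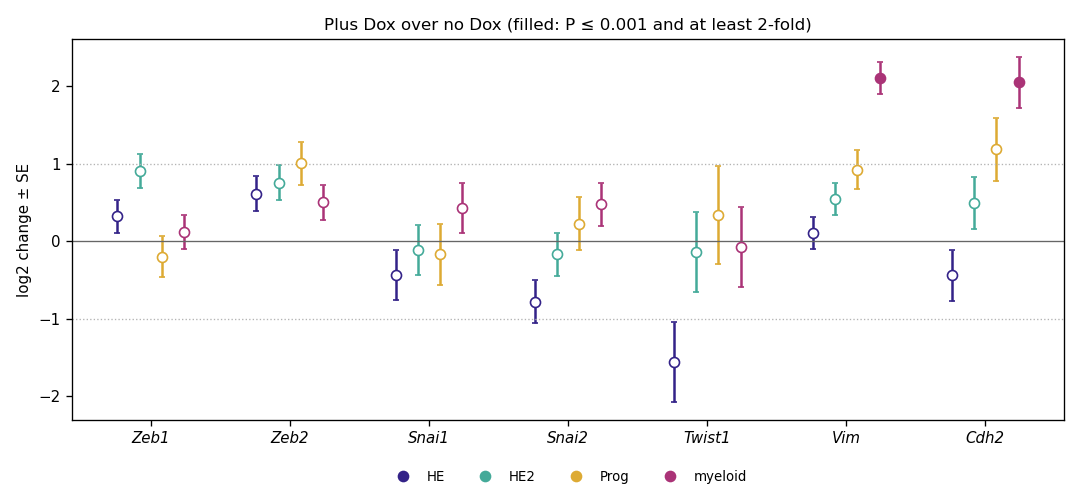
Log2 change ± SE with Dox over without Dox for the 7 genes (horizontal axis) at the 4 stages (colours), from the limma fit (vertical axis), with filled points past the threshold and dotted lines at 2-fold. The 2 filled points are Vim (2.11) and Cdh2 (2.05) in myeloid progenitors, and the Zeb2 points are above 0 at all 4 stages.

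The design also allows the stage steps to be read within induced cells, all sorted after Dox was added at day 1. From HE to HE2 with Dox no member passed the threshold, where 3.1% of all genes did, in the limma fit. At an unadjusted P under 0.05, which 18.3% of all genes had, there were 2 members, Zeb1 (-0.49, SE 0.22) and Snai1 (-0.79, SE 0.32). Leaving out 1 array gave -0.67 to -0.24 for Zeb1 and -0.99 to -0.60 for Snai1. Snai1 and Cdh2 were lower on every HE2 array, as 7.45% of all genes were. The median over the members was -0.12, beside 0.015 over all genes.

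From HE2 to Prog with Dox Zeb1, Snai1 and Snai2 fell, where 7.36% of all genes passed and 5.34% fell. Zeb1 read 11.71, 11.05 and 11.90 in induced HE2 and 10.32 and 9.68 in induced Prog, a fall of 1.56 (SE 0.24, adjusted P = 0.000245, limma) that lost its call when only the groups compared were fitted, without or with the replicate block (adjusted P = 0.0654 and 0.0276, limma). Snai2 fell by 2.05 (SE 0.31, adjusted P = 0.000204, limma), from 7.45, 7.72 and 8.03 to 5.85 and 5.51. For both SNAIL genes only 1 of the 2 induced Prog arrays was well above background, and without the other, at 5.51, the Snai2 difference was -1.88 and passed. Snai1 fell by 1.48 (SE 0.36, adjusted P = 0.00857, limma), a call lost without any of 3 of the 5 arrays, among them the Prog array that was not well above background, at 6.20 (-1.05). It was also lost with 75th percentile scaling, in both fits of only the groups compared and with the slide as a block (-1.29, adjusted P = 0.0848, limma), and on slide 1, where only 1 array of each stage lies, the difference was -1.05. Vim (-0.63, SE 0.23) and Cdh2 (-1.12, SE 0.37), which fell in uninduced cells, were lower on every induced Prog array without passing, so that 5 of the 7 members were, beside 20.9% of all genes. The Cdh2 value moves with 1 array: it was -1.83 and passed without the first induced Prog array (adjusted P = 0.00433, limma), and -0.42 without the second. Whether the step differs between induced and uninduced cells was not tested. Summed mesenchymal or fibroblast markers were 1910 to 3556 in induced HE2 and 1390 to 2911 in induced Prog, which overlap, and endothelial ones were 101941 to 118088 and 40609 to 50083. Higher in induced Prog were haematopoietic sums, at 26475 to 30861 and 72550 to 79217, erythroid ones, at 358008 to 432334 and 488368 to 685941, and epithelial ones, at 2927 to 3677 and 4163 to 9266. The smooth muscle, cardiac and macrophage or mast sums overlap.

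Whether the Dox response differs between the stages, as they were cultured and induced, was tested by the difference of the differences. Between HE2 and HE no member passed, in the limma fit, where 1.34% of all genes did. None had an unadjusted P under 0.05, beside 8.62% of all genes. All 7 values were positive, from 0.15 for Zeb2 to 1.42 for Twist1 (SE 0.73), beside a median of -0.0068 over all genes. The 7 values come from the same arrays, and the share of positive values over all genes was not computed. The sign turned for Snai1 (lowest -0.052) and Zeb2 (lowest -0.0045) when 1 array was left out. Between myeloid progenitors and HE, 2 members passed, where 4.72% of all genes did and 2.96% in that direction. The response of Cdh2 was higher in myeloid progenitors by 2.49 (SE 0.47, 95% interval 1.5 to 3.48, adjusted P = 0.00253, limma) and that of Vim by 2.01 (SE 0.30, 95% interval 1.38 to 2.63, adjusted P = 0.000388, limma). Snai2 differed by 1.26 (SE 0.39, adjusted P = 0.0655, limma) without passing, but it passed without the first uninduced HE array (1.53) or the second uninduced myeloid array (1.58). Twist1 differed by 1.49 and passed without the third uninduced myeloid array (2.38). For Zeb1 (-0.20, SE 0.30) and Zeb2 (-0.11, SE 0.32) the 95% intervals were -0.84 to 0.44 and -0.78 to 0.56. Stage, slide, scan day, culture medium, harvest day and length of Dox treatment go together in this contrast and cannot be told apart. Dox was given from day 1 to the sort at day 2 in HE and for 12 h in myeloid progenitors. The myeloid arrays share 1 slide, but the HE groups lie unevenly over the other 2 slides, within which the HE response was 0.08 and -0.57 for Cdh2 and 0.04 and 0.10 for Vim. With the slide as a block the differences were 2.32 for Cdh2 and 2.05 for Vim, both past the threshold.

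The 2 genes with a second probe allowed a check within the same arrays. For Cdh2, the second probe averaged 12.76, 11.41, 9.42 and 9.52 in uninduced cells from HE to myeloid progenitors, and it passed the threshold in each comparison in which the used probe did. For Zeb2, the second probe averaged 7.13, 7.24, 7.21 and 7.43 in uninduced and 7.67, 7.99, 8.32 and 7.96 in induced cells. Its Dox differences, from 0.53 to 1.11, were close to those of the used probe (0.50 to 1.01), but in HE its arrays overlap, at 6.67, 7.36 and 7.37 without and 8.23, 7.75 and 7.03 with Dox.

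**Figure D4:**
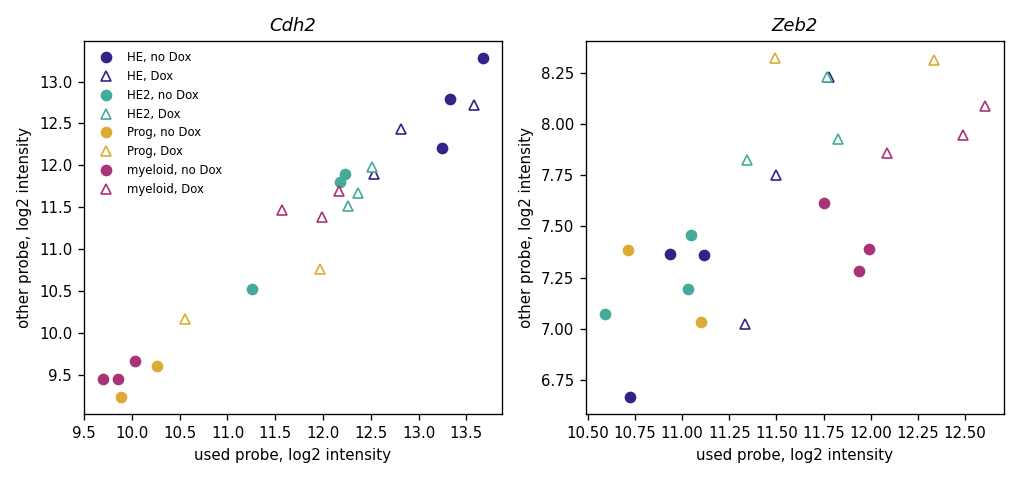
Log2 intensity of the second probe (vertical axis) against the used probe (horizontal axis) of Cdh2 and Zeb2 on each of the 22 arrays, coloured by stage, with filled circles without and open triangles with Dox. The uninduced Prog and myeloid means of Cdh2, 10.07 and 9.86 on the used probe, are 9.42 and 9.52 on the second, while the uninduced myeloid arrays of Zeb2 lie to the right of the other uninduced arrays on the used probe only.

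Genes related to the members were read from lists chosen by function. Of 9 other EMT-inducing transcription factors that were tested, Prrx2, a paired-related homeobox gene, rose with Dox in HE (2.96, SE 0.39), HE2 (1.93, SE 0.39) and myeloid progenitors (1.66, SE 0.39). The forkhead gene Foxc1 rose in HE2 (1.57, SE 0.33) and myeloid progenitors (2.98, SE 0.33). Klf8, a zinc-finger repressor, fell in HE by 1.25 (SE 0.20) and in HE2 by 1.26 (SE 0.20), and Tcf4, an E-protein, rose in myeloid progenitors (1.28, SE 0.26). The list gave 1 higher and 1 lower in HE, 2 and 1 in HE2, 0 and 0 in Prog, and 3 and 0 in myeloid progenitors, with medians between -0.12 and 0.40. Without Dox 5 of the 9 fell from HE2 to Prog, Foxc2 (-2.65, SE 0.32), Twist2 (-1.98, SE 0.50) and Prrx2 (-1.82, SE 0.44) by most. Of 10 cofactors bound by ZEB and SNAIL repressors, 1 changed with Dox, the LIM-domain gene Ajuba in myeloid progenitors (2.38, SE 0.27).

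Mesenchymal effector genes did not move as 1 group. Of 19 tested, 3 rose and 5 fell with Dox in HE (median -0.65), 2 rose and 6 fell in HE2 (median -0.18), 1 rose in Prog (median 0.027) and 2 rose and 1 fell in myeloid progenitors (median 0.59). In HE the surface gene Thy1 (3.29, SE 0.34) and the collagen gene Col3a1 (1.83, SE 0.31) rose, whereas the collagen gene Col1a1 (-2.08, SE 0.52), the galectin gene Lgals1 (-2.03, SE 0.35) and the smooth muscle actin gene Acta2 (-2.01, SE 0.43) fell. The matrix gene Fn1, which encodes fibronectin, rose in Prog (2.13, SE 0.24) and in myeloid progenitors (2.07, SE 0.20), and Sparc (1.45, SE 0.19) rose with it in the latter. Without Dox, 3 of the 19 fell from HE2 to Prog, Col1a1 (-3.53, SE 0.59), Fn1 (-1.96, SE 0.22) and Sparc (-1.48, SE 0.21).

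Epithelial junction and keratin genes, which ZEB and SNAIL proteins are known to repress, numbered 14 tested. With Dox 2 rose and 2 fell in HE, 0 rose and 2 fell in HE2, 2 rose in Prog and 1 rose in myeloid progenitors. Krt18, a keratin of simple epithelia, fell in HE (-2.13, SE 0.40) and in HE2 (-2.67, SE 0.40), where its partner Krt8 fell by 3.70 (SE 0.61). Krt19 rose in Prog (2.14, SE 0.39) and in myeloid progenitors (4.13, SE 0.32). Cdh1, the E-cadherin gene and best known target of these repressors, was below the filter on low values. Of 8 classical cadherins and catenins that were tested, 0 passed in HE and Prog, Cdh3 fell in HE2 (-1.21, SE 0.31), and Cdh5, which encodes VE-cadherin, rose in myeloid progenitors (1.69, SE 0.26). From HE2 to Prog without Dox, Cdh5 (-1.53, SE 0.29) and Cdh3 (-1.36, SE 0.34) fell.

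Vimentin was not the only intermediate filament gene to respond. Of 13 genes tested from a list of others, Prph, which encodes peripherin, rose with Dox in HE (4.64, SE 0.28), HE2 (3.03, SE 0.28), Prog (2.08, SE 0.34) and myeloid progenitors (2.27, SE 0.28). The list shares Krt8, Krt18 and Krt19 with the epithelial one, and it also names Synpo2, which does not encode an intermediate filament. Synm, which encodes synemin, a filament partner of vimentin, rose in HE2 (1.39, SE 0.27), Prog (1.69, SE 0.33) and myeloid progenitors (2.45, SE 0.27). The lamin gene Lmna fell in HE (-1.64, SE 0.19) and HE2 (-1.14, SE 0.19). In counts, 1 rose and 3 fell in HE, 2 rose and 3 fell in HE2, and 3 rose and none fell in Prog and in myeloid progenitors.

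Transforming growth factor-beta is a known inducer of these transcription factors, and 14 genes of its pathway were tested. With Dox, 1 fell in HE, the signal mediator Smad3 (-1.20, SE 0.18), 3 rose in HE2, 1 in Prog and 3 in myeloid progenitors. The receptor genes Tgfbr3 (1.56, SE 0.19) and Tgfbr2 (1.45, SE 0.30) rose in HE2, and the endothelial co-receptor and receptor genes Eng (2.94, SE 0.53) and Acvrl1 (2.16, SE 0.29) in myeloid progenitors. Medians lay between 0.28 and 0.38 at the 4 stages. All values of these lists come from the limma fit with the threshold given above, and they describe the genes of each list without a test of the list.

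**Figure D5:**
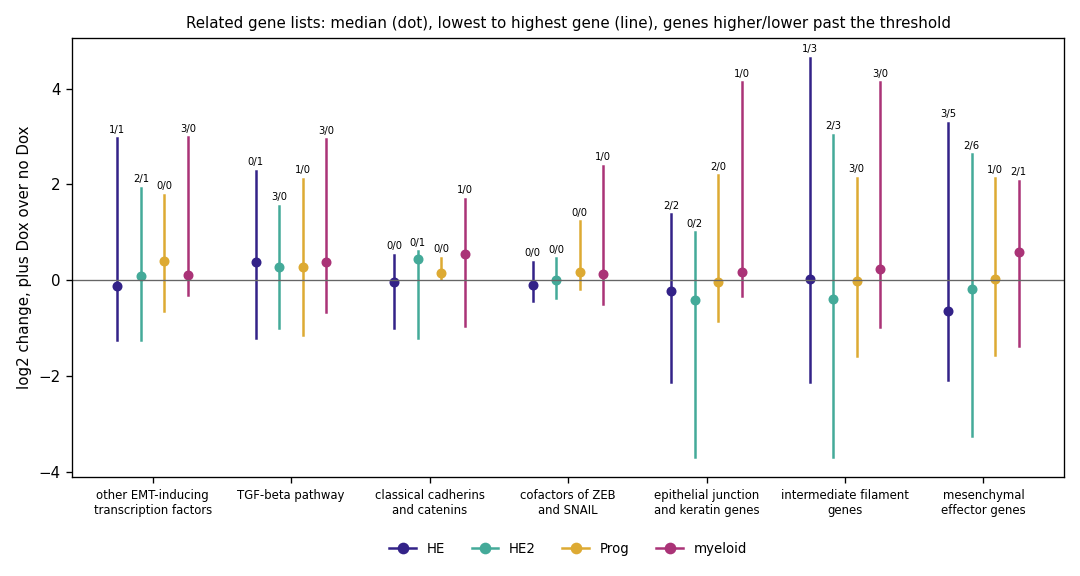
Log2 change with Dox over without Dox (vertical axis) for 7 lists of related genes (horizontal axis) at the 4 stages (colours), with the median as a dot, a line from the lowest to the highest gene, and the numbers of genes past the threshold written as higher/lower. Most medians lie near 0 while single genes reach 4.64 (Prph in HE) and -3.70 (Krt8 in HE2).

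The members were also compared with each other and with all other genes over the 8 group means, as a description, since the 22 arrays behind them share slides. Snai1 and Snai2 ran together (r = 0.95), as did Zeb1 and Snai1 (r = 0.93) and Vim and Cdh2 (r = 0.92), whereas Zeb1 and Zeb2 ran apart (r = -0.46). Among 9359 genes whose group means span at least 1 log2 unit, those most like Vim were Egfl7 (r = 0.978), Kdr (r = 0.975) and Thbd (r = 0.971), all known as endothelial genes. Those most like Cdh2 were Bcar1 (r = 0.988), Crip2 (r = 0.985) and Palld (r = 0.984), and those most like Snai2 were Nfib (r = 0.992), Tub (r = 0.983) and Adgrf5 (r = 0.982). Snai1 was closest to Peg3os, Bicc1 and Hoxb6 (r from 0.994 to 0.996), and Zeb1 to Babam1, Erbb2 and Npy5r (r from 0.990 to 0.994). For Zeb2 the 3 were Etfbkmt, Chkb and Alas2 (r from 0.978 to 0.987), and for Twist1 Dcun1d3, Fhl1 and Npvf (r from 0.923 to 0.950).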

How the data were processed

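Total RNA was labelled with Cy3 and hybridised to 1-colour Agilent oligonucleotide arrays. The authors deposited scanner files, whose spot intensity values came from Agilent Feature Extraction (version 10.7.1.1 per the labels, 10.7.3.1 per the file headers), and a table of normalised log2 values, used here as an alternative only. Median spot signals were background-corrected with normexp (offset 16), control spots (3671) and outlier spots were left out, and 23 arrays were quantile-normalised, after the methods of the study. Probes were named through RefSeq accessions (26582 of 55681 matched). Genes were kept where any array reached 6.5 on the log2 scale and tested with limma 3.58.1 in R 4.3.3, with 1 mean per group over 22 arrays (14 residual degrees of freedom) and P values adjusted by Benjamini-Hochberg over 15202 genes. A change was called when it reached 2-fold and its unadjusted limma P did not exceed 0.001, the threshold of the study's methods. Arrays lay on 3 slides, and differences within slides were recomputed where a slide held both groups. Replicate numbers were checked as pairs by the correlation of deviations from group means, and only uninduced HE and HE2 paired (r = 0.39, 0.79 and 0.61). Alternatives covered background correction, scaling, filter, probe choice, threshold, blocks and leaving out each array. The fit was tested on simulated data. The members, the gene lists and the genes named (all members, up to 3 genes per direction from a list, 3 most like each member) were chosen with earlier results of these data known. Upstream sequences were read with Python 3.11.15. For the transforming growth factor-beta list, 1 gene is not reported here.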

Additional observations from a re-analysis of the deposited data

Results flagged for a closer look

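The Dox response of Cdh2 was higher in myeloid progenitors than in HE by 2.49 on the log2 scale, and that of Vim by 2.01. Both were singled out because the difference between the responses of these stages itself passed the threshold of the limma fit. The HE groups lie unevenly over 2 slides and the myeloid arrays on another, and with the slide as a block the differences were 2.32 and 2.05. Culture medium, harvest day and length of Dox treatment also differ between these stages. No explanation was tested.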

How the results depend on the processing

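Of 1576 recomputed values of single members, 1520 kept their side of the threshold, 32 lost a call and 24 gained one. No called value turned its direction, while some uncalled values changed sign. The Vim and Cdh2 calls with Dox in myeloid progenitors and their differences from HE held in every alternative run. Without the P limit the members called were 1 with Dox in HE (main 0), 2 in Prog (main 0), 4 from HE to HE2 without Dox (main 2), 4 from HE2 to Prog with Dox (main 3, Cdh2 added), 1 for the HE2 minus HE difference (main 0) and 4 for the myeloid minus HE difference (main 2). With an adjusted P of 0.05 there was 1 with Dox in HE, 1 in Prog and 3 from HE to HE2 without Dox (Snai1 added), and no other count changed. The share of all genes past either of these rules was not computed, so the counts cannot be set against it. The mean of a gene's probes (Zeb2, 1.06) and the slide as a block (Cdh2) each gave 1 in Prog. From HE2 to Prog without Dox, 75th percentile scaling left 2 of the 4 calls and fitting only the groups compared left 1; with Dox that fit left 1 of 3. The replicate block was run in that fit of only the groups compared. From HE to HE2 without Dox, the 1 step whose numbers paired the arrays, it gave 3 members, against 2 without the block. Where the pairing was not borne out, from HE2 to Prog, it gave 2 without Dox, against 1, and 1 with Dox, as without the block. It moved no other count. Exchanging arrays 2 and 3 of the induced groups in that block, an alternative chosen after seeing the data, changed none. Leaving out 1 array at a time gave 0 to 1 members in HE2 and in Prog with Dox, 1 to 3 from HE to HE2 without Dox, 1 to 3 from HE2 to Prog without and 2 to 4 with Dox, and 2 to 3 for the myeloid minus HE difference, where Twist1 passed (2.38) without the third uninduced myeloid array. In Prog against myeloid progenitors, the slide block moved Cdh2 from -0.21 to 0.95, uncalled, a value that rests on 1 induced Prog array on the myeloid slide. Scaling to the 75th percentile moved the median of all genes to -0.25 there, -0.19 for Dox in Prog and -0.15 for Dox in myeloid progenitors. Of the 3 genes most like each member, the 22 single arrays shared 2 for Zeb1 and Snai2, 1 for Snai1, Twist1 and Vim, and 0 for Cdh2 and Zeb2. Snai1 and Snai2 lay close to background in Prog and myeloid progenitors, which limits their values there, and groups of 2 arrays limit every comparison with Prog.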
